A study of Mus musculus with 2 samples.

Results

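The genes described here encode the muscle nicotinic acetylcholine receptor and the agrin, LRP4 and MuSK pathway that clusters it at the neuromuscular junction. They were taken by symbol from the gene count table, with symbols matched to Ensembl mouse identifiers, and 9 of the 10 genes listed had a row among 16190. The genes were the receptor subunits Chrna1, Chrnb1, Chrnd and Chrng, the scaffold gene Rapsn, and Agrn, Lrp4, Musk and Dok7. The table used here had no row for the epsilon subunit gene Chrne (ENSMUSG00000014609), so its level is not analysed here. All 9 passed a filter that asked for 1 CPM or more in either library and 20 counts or more in the sum, where CPM are counts scaled to library size.

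The RNA came from tibialis anterior cells that the labels call satellite cells, the stem cells of muscle. The Cipc-scko library came from mice labelled as a satellite cell knockout of Cipc, titled Cipc-/-, and the Cipc-flox/flox library from floxed mice, titled Cipc+/+. Both carry the strain label C57BL/6, and the Cre driver, the number of animals, their age and sex and the time of day were not named in the sources. With 1 library per group, each ratio compares these libraries and not the genotypes, no p-value was computed, and every interval is a 95% interval that covers counting error only.

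Motor nerve terminals release acetylcholine onto a pentameric cation channel in the muscle membrane. The fetal channel is built from alpha, beta, delta and gamma subunits, and after innervation the epsilon subunit takes the place of gamma. Agrin, secreted by the nerve and in other splice forms by muscle, binds LRP4, which activates the kinase MuSK. DOK7 binds MuSK from inside the cell and sustains its activity, and rapsyn holds receptors together in clusters. Receptor genes are known targets of the myogenic helix-loop-helix factors, which bind E-boxes (CANNTG), and denervated or developing muscle expresses the gamma subunit along the fibre.

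The libraries held 16830168 counts in Cipc-scko, against 16145870 counts in Cipc-flox/flox. The targeted gene Cipc had 594 counts in Cipc-scko, against 1907 in Cipc-flox/flox, a 3.04-fold lower level (2.78 to 3.34). Xist had 4 counts in Cipc-scko, against 3898 in Cipc-flox/flox, and the Y-linked genes Ddx3y, Kdm5d and Uty had 511, 348 and 155 counts in Cipc-scko, against 0 in Cipc-flox/flox, so sex-linked expression and genotype cannot be told apart. All 10 myogenic markers had counts in both libraries, with 6 of them higher in Cipc-scko, such as 62.2 CPM of the satellite cell factor Pax7 in Cipc-scko, against 2.54 CPM in Cipc-flox/flox. All 8 myofibre markers past the filter were higher in Cipc-scko, with a summed level over 9 markers of 14346 CPM in Cipc-scko, against 238 CPM in Cipc-flox/flox, where Myh1, Myh2 and Myh7 were at 0. In bulk RNA, fewer cells of a type and less RNA per cell cannot be told apart.

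Of the 9 genes, 2 were higher in Cipc-scko, the gamma subunit gene Chrng and the agrin gene Agrn, and 0 were lower. To be called, a gene had to differ at least 2-fold and have a counting interval without equality. By the same rule 37.2% of all 12874 genes past the filter were called, 21.2% higher and 15.9% lower, beside 22.2% of the 9 genes. The other 7 genes differed less than 2-fold between the libraries. Ratios are of Cipc-scko over Cipc-flox/flox throughout, and their log2 median was 0.23 for the 9 genes and 0.0062 for all genes.

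**Figure D1:**
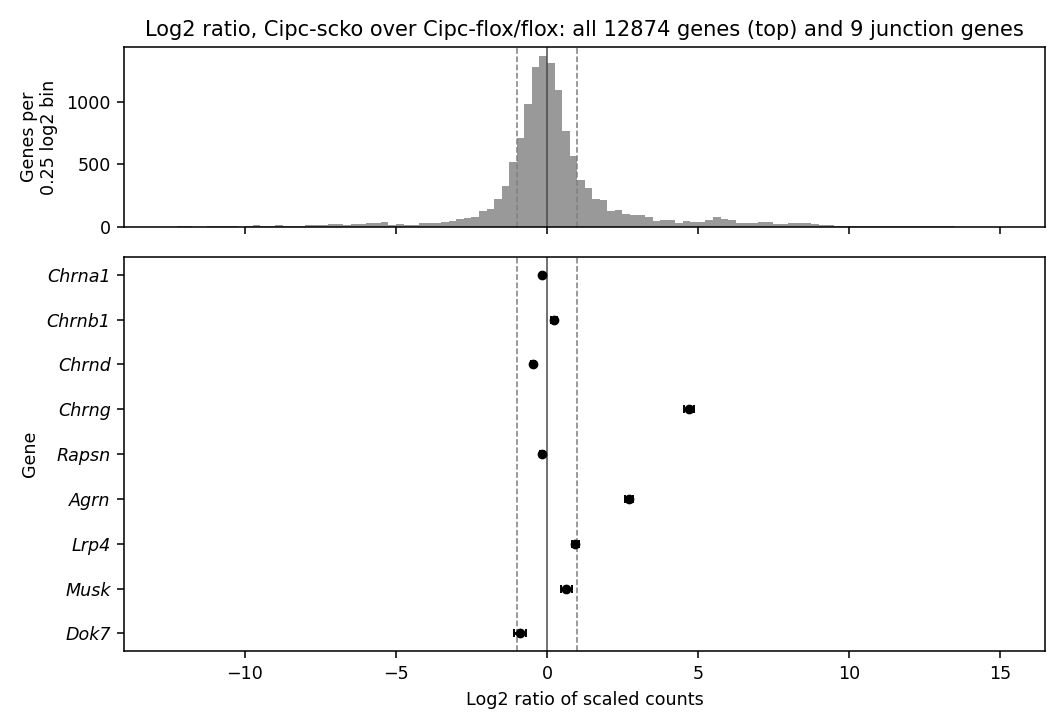
Log2 ratio of scaled counts (x axis, Cipc-scko over Cipc-flox/flox) for all 12874 genes past the filter (top, number of genes per bin) and for 9 receptor and agrin pathway genes (bottom, points with 95% counting intervals). Dashed lines mark a 2-fold difference. Chrng at 4.70 and Agrn at 2.71 lie beyond it, and the other 7 genes lie between -0.88 and 0.94.

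The alpha, beta and delta subunits of the receptor were detected at high levels in both libraries and differed less than 2-fold between them. Chrna1, which encodes the subunit with the principal face of the acetylcholine binding site, had 11994 counts (747 CPM) in Cipc-scko, against 14092 counts (833 CPM) in Cipc-flox/flox. Its log2 ratio was -0.16 (-0.19 to -0.12), a 1.11-fold lower level in Cipc-scko. FPKM, the authors' deposited level per transcript length, follow library totals, while CPM and log2 ratios here use adjusted library sizes. Ratios between libraries therefore differ somewhat between the units. In FPKM, Chrna1 was the highest of the 9 genes in both libraries, at 162 in Cipc-scko, against 199 in Cipc-flox/flox. These levels were at or above those of 97.9% of genes past the filter in Cipc-scko, against 98.3% in Cipc-flox/flox.

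Chrnb1, the beta subunit gene, had 1821 counts (113 CPM) in Cipc-scko, against 1640 counts (96.9 CPM) in Cipc-flox/flox. Its log2 ratio was 0.23 (0.13 to 0.32), a slightly higher value in Cipc-scko. Chrnd, the delta subunit gene, had 3647 counts (227 CPM) in Cipc-scko, against 5318 counts (314 CPM) in Cipc-flox/flox. Its log2 ratio was -0.47 (-0.53 to -0.41), a 1.38-fold lower level. None of the 3 genes reached 2-fold. The interval of Chrnb1 excluded equality with the scaling used here and included it with scaling by totals (log2 0.09, -0.0059 to 0.19). Summed over the 3 subunits, FPKM came to 237 in Cipc-scko, against 294 in Cipc-flox/flox.

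The gamma subunit gene Chrng stood apart from the other subunits. It had 7451 counts (464 CPM) in Cipc-scko, against 301 counts (17.8 CPM) in Cipc-flox/flox. Its level was 26.1-fold higher in Cipc-scko (23.3 to 29.4), a log2 ratio of 4.70 (4.54 to 4.88), and 765 of the 12874 genes (5.94%) had a ratio as high or higher. In FPKM it stood at 87.1 in Cipc-scko, against 3.67 in Cipc-flox/flox, where the gene was low but detected. In level per length it ranked 2 among the 9 genes in Cipc-scko, against 8 in Cipc-flox/flox.

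Ratios between subunits within a library do not depend on how the libraries are scaled. Chrng FPKM was 53.6% of Chrna1 FPKM in Cipc-scko, against 1.84% in Cipc-flox/flox. The count ratio of Chrng to Chrna1 was 29.1 times as high in Cipc-scko as in Cipc-flox/flox (25.8 to 32.8). The corresponding factor was 22.3 (19.5 to 25.5) against Chrnb1 and 36.1 (31.9 to 40.9) against Chrnd. Of the counts of these 4 subunit genes, Chrng took 29.9% in Cipc-scko (exact Clopper-Pearson interval 29.3% to 30.5%) and 1.41% in Cipc-flox/flox (1.26% to 1.58%). By FPKM its share was 26.9% in Cipc-scko, against 1.23% in Cipc-flox/flox. The share of Chrna1 was 50.2% of FPKM in Cipc-scko, against 66.9% in Cipc-flox/flox, and that of Chrnd was 13.2% in Cipc-scko, against 21.8% in Cipc-flox/flox. Chrnb1 took nearly the same share of FPKM in both, 9.80% in Cipc-scko, against 10.02% in Cipc-flox/flox. The summed FPKM of the 4 subunits was 324 in Cipc-scko, against 297 in Cipc-flox/flox.

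**Figure D2:**
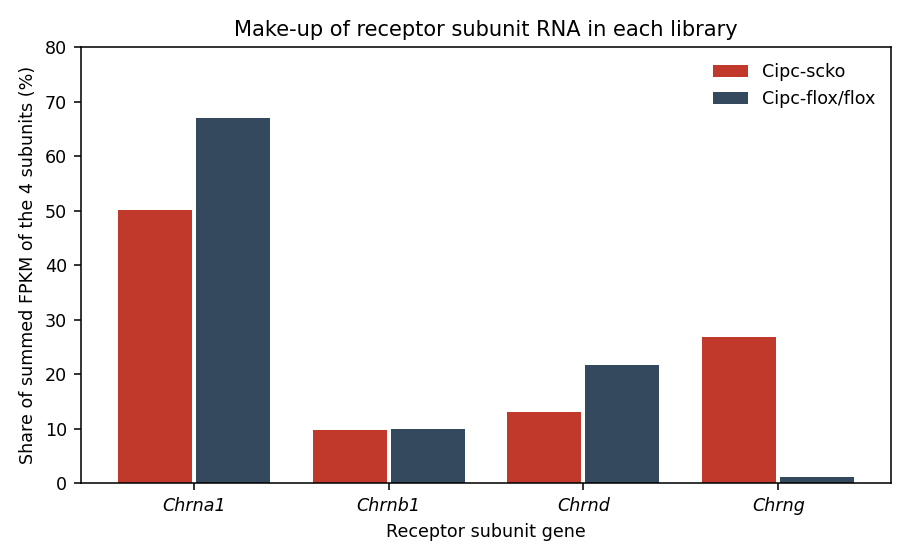
Share of the summed FPKM of 4 receptor subunit genes (y axis, percent) that each gene took in the Cipc-scko library (red) and in the Cipc-flox/flox library (dark blue). Chrng took 26.9% in Cipc-scko, against 1.23% in Cipc-flox/flox, while Chrnb1 took 9.80% in Cipc-scko, against 10.02% in Cipc-flox/flox.

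Chrnd and Chrng lie next to each other on the plus strand of chromosome 1 (GRCm38, 87190607 to 87200070 and 87204657 to 87212694), with 4586 bases between them. Chrng was 26.1-fold higher in Cipc-scko, while its neighbour Chrnd was 1.38-fold lower. Eif4e2, a gene for a cap-binding protein that begins 1219 bases beyond Chrng, had nearly equal levels of 150.5 CPM in Cipc-scko, against 150.0 CPM in Cipc-flox/flox. The median log2 ratio of the other 762 genes of chromosome 1 past the filter was -0.01.

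The promoters of the gamma and alpha genes, which went apart here, and of Chrnb1 and Agrn are shown because receptor genes are known E-box targets. RefSeq windows on GRCm38.p6, of 250 bases before to 50 after a transcription start, were found for 7 of the 10 genes (Chrnd, Rapsn and Lrp4 had no entry). Capitals mark each E-box, CANNTG on either strand.
Chrng (chr1:87205561-87205860, plus strand): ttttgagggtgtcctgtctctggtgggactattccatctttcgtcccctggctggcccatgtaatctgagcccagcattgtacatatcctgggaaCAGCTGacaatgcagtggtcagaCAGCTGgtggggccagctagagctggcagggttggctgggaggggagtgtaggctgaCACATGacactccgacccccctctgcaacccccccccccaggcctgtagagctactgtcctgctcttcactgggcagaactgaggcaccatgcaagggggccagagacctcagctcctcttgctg
Chrna1 (chr2:73580289-73580588, minus strand): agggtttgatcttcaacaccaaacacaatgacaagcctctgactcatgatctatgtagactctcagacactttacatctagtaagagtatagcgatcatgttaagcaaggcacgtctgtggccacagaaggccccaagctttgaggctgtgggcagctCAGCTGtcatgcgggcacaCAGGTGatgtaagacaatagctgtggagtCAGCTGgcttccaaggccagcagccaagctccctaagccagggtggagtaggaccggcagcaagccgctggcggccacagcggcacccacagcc
Chrnb1 (chr11:69795888-69796187, minus strand): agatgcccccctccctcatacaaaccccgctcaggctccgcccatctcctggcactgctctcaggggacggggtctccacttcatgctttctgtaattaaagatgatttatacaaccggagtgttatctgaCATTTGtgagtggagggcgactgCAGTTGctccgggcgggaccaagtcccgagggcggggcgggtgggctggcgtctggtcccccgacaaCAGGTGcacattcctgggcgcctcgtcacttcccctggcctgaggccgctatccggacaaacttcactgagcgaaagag
Agrn (chr4:156197439-156197738, minus strand): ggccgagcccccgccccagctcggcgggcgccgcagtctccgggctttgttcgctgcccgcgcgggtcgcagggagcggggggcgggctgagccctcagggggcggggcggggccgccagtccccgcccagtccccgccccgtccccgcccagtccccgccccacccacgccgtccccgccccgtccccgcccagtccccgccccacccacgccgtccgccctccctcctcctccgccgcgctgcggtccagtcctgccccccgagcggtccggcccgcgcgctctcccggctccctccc

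The Chrng and Chrna1 windows each held 3 E-boxes, 2 of them of the form CAGCTG. Those of Chrng begin 155 and 132 bases before the start, and those of Chrna1 92 and 44 bases before it. The Chrng window begins at 87205561, inside the gene span given above, which begins at 87204657. Its distances therefore hold for the RefSeq start alone. Among 32851 RefSeq promoter windows of this length, 72.3% held at least 1 E-box and 39.6% at least 2. The share with at least 3 was not computed. Of the same windows, 16.3% held CAGCTG (a subset of the E-boxes, reading the same on both strands), and 1.90% held it at least 2 times. The Chrnb1 window held 3 E-boxes and no CAGCTG, and the Agrn window shown held none, while a second Agrn start had 1. The Musk window held 3 E-boxes, 1 of them CAGCTG. Of the Dok7 windows, 1 held an E-box and the other none. The Chrne window held 1 E-box, a CAGCTG, and 1 N-box (CCGGAA, found in 14.9% of all windows).

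Rapsn, which encodes the scaffold protein that anchors receptors, kept nearly the same ratio to Chrna1 in both libraries. It had 2469 counts (154 CPM) in Cipc-scko, against 2920 counts (173 CPM) in Cipc-flox/flox. Its log2 ratio was -0.17 (-0.24 to -0.09). Its FPKM was 50.1 in Cipc-scko, against 61.8 in Cipc-flox/flox. Rapsn FPKM was 0.308 of Chrna1 FPKM in Cipc-scko, against 0.310 in Cipc-flox/flox, and the count ratio of Rapsn to Chrna1 differed by a factor of 0.993 (0.936 to 1.05) between the libraries, an interval that includes equality. Gm13778, annotated on the opposite strand, shares 1638 bases with the Rapsn gene, and no source used here says whether counting was strand-specific.

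Agrn, the gene for the secreted organiser agrin, was the other gene higher in Cipc-scko. It had 3024 counts (188 CPM) in Cipc-scko, against 486 counts (28.7 CPM) in Cipc-flox/flox. The level was 6.55-fold higher in Cipc-scko (5.96 to 7.23), a log2 ratio of 2.71 (2.58 to 2.85), and 1267 genes (9.84%) had a ratio as high or higher. In FPKM it stood at 12.8 in Cipc-scko, against 2.14 in Cipc-flox/flox, the lowest of the 9 genes in Cipc-flox/flox. A count per gene does not separate the splice forms of agrin made by neurons from those made by muscle. The median log2 ratio of the other 790 genes of chromosome 4 was 0.23, or 0.22 above that of all genes, beside 2.71 for Agrn.

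Its receptor gene Lrp4 had 1521 counts (94.7 CPM) in Cipc-scko, against 838 counts (49.5 CPM) in Cipc-flox/flox. This was a 1.91-fold higher level in Cipc-scko (1.76 to 2.08), just short of the 2-fold limit. Musk, the kinase gene, had 541 counts (33.7 CPM) in Cipc-scko, against 364 counts (21.5 CPM) in Cipc-flox/flox, a 1.57-fold higher level (1.37 to 1.79). Ligand, receptor and kinase genes thus all had the higher value in Cipc-scko, with Agrn alone past 2-fold. The count ratio of Agrn to Lrp4 was 3.43 times as high in Cipc-scko as in Cipc-flox/flox (3.01 to 3.90).

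Dok7, the gene for the cytoplasmic activator of MuSK, had the lower value in Cipc-scko. It had 336 counts (20.9 CPM) in Cipc-scko, against 654 counts (38.6 CPM) in Cipc-flox/flox. The level was 1.84-fold lower in Cipc-scko (1.62 to 2.11), a log2 ratio of -0.88 (-1.08 to -0.69), which did not reach the limit. With libraries scaled by their totals the ratio was -1.02, and Dok7 was then called lower. The FPKM ratio of Dok7 to Musk was 0.674 in Cipc-scko, against 1.95 in Cipc-flox/flox, so that the order of the kinase and its activator was opposite in the libraries. The count ratio of Dok7 to Musk in Cipc-scko was 0.346 times that in Cipc-flox/flox (0.285 to 0.419).

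Ordered by level per length, the 9 genes in Cipc-scko ran from Chrna1 through Chrng, Rapsn, Chrnd, Chrnb1, Agrn, Lrp4 and Musk to Dok7 at 3.69 FPKM. No neighbours in that order had overlapping counting intervals. In Cipc-flox/flox the order was Chrna1, Chrnd, Rapsn, Chrnb1, Dok7, Musk, Lrp4, Chrng and Agrn. There, Chrnd at 64.8 FPKM (63.1 to 66.5) and Rapsn at 61.8 FPKM (59.6 to 64.1) overlapped. Musk at 3.84 FPKM, Lrp4 at 3.82 FPKM and Chrng at 3.67 FPKM in Cipc-flox/flox also had overlapping intervals and cannot be ordered at this depth.

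**Figure D3:**
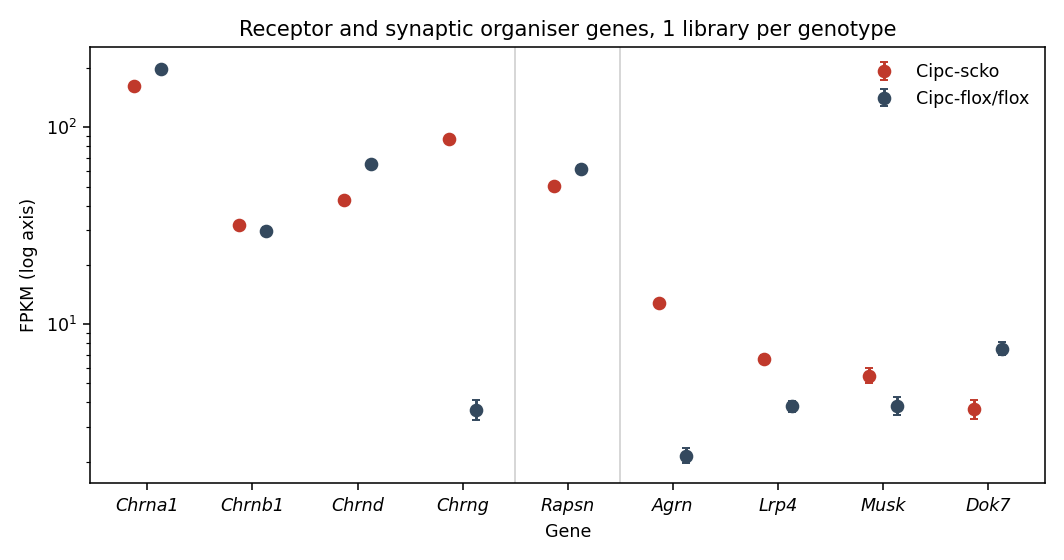
FPKM (y axis, log scale) of 9 receptor and agrin pathway genes (x axis) in the Cipc-scko library (red) and the Cipc-flox/flox library (dark blue), with 95% counting intervals, many of them smaller than the points. Chrng stands at 87.1 in Cipc-scko, against 3.67 in Cipc-flox/flox, and Agrn at 12.8 in Cipc-scko, against 2.14 in Cipc-flox/flox, while the paired points of the other genes lie closer together.

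Other genes of the junction were read from 7 lists covering 104 genes, of which 79 passed the filter. Of these, 21 (26.6%) were higher in Cipc-scko and 10 (12.7%) lower, beside 21.2% and 15.9% of all genes. Their median log2 ratio was 0.42, against 0.0062 for all genes. A gene at 0 counts in 1 library that passes the filter is called by construction, as were Ache, Dmd and Nrg1, described below.

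Scaffold and synaptic basal lamina genes went both ways. Of 18 past the filter, 7 were higher in Cipc-scko, Ache and Dmd among them, and 2 lower, and the log2 median was 0.94. The basement membrane gene Nid2, whose protein is enriched at synaptic sites of muscle, had 15860 counts in Cipc-scko, against 480 in Cipc-flox/flox (log2 5.12). Lama4, a laminin chain gene of the synaptic basal lamina, stood at 52.2 CPM in Cipc-scko, against 1.18 CPM in Cipc-flox/flox. The related nidogen gene Nid1 went the other way, at 244 CPM in Cipc-scko, against 829 CPM in Cipc-flox/flox (log2 -1.76, -1.82 to -1.71), as did the syntrophin gene Sntb2 (log2 -1.44). Acetylcholinesterase (Ache), the enzyme that ends transmission, had 24 counts in Cipc-scko, against 0 in Cipc-flox/flox. Its Cipc-scko level was 8.43 times a floor of 3 counts in Cipc-flox/flox, and the counting interval of its log2 ratio began at 2.67. The dystrophin gene Dmd had 28 counts in Cipc-scko, against 0 in Cipc-flox/flox. Its Cipc-scko level was 9.84 times the same floor, and its log2 interval began at 2.90.

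Most of the signalling genes at or next to MuSK were not called. Of 22 genes, Cipc-scko had 3 higher and 3 lower, and the log2 median of 0.04 turned negative with scaling by totals (-0.10). Camk2b, a calcium-dependent kinase gene of muscle, had 279 counts in Cipc-scko, against 5 in Cipc-flox/flox (log2 5.74, 4.64 to 7.51). The neuregulin receptor gene Erbb3 stood at 74.3 CPM in Cipc-scko, against 18.7 CPM in Cipc-flox/flox. The ligand gene Nrg1 had 0 counts in Cipc-scko, against 32 in Cipc-flox/flox. Its Cipc-flox/flox level was 10.1 times a floor of 3 counts in Cipc-scko, and its log2 interval ended at -2.96. Src and Crk, a kinase gene and the gene of an adaptor that binds DOK7, were lower in Cipc-scko, with log2 ratios of -1.03 and -1.02 at the edge of the limit.

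Among genes for the activity-dependent control of receptor transcription, 6 of 13 were higher in Cipc-scko and 1 lower, and the log2 median was 0.54. Myogenin (Myog), an E-box factor that drives receptor genes in denervated muscle, had 44286 counts in Cipc-scko, against 53 in Cipc-flox/flox (log2 9.77). Myod1, of the same family, stood at 1192 CPM in Cipc-scko, against 113 CPM in Cipc-flox/flox (log2 3.40). Chrng had the higher value in the library with the higher Myog and Myod1, and so did Chrnb1, by less than 2-fold. Chrna1 and Chrnd did not. Of the other helix-loop-helix factor genes in this list, Myf6 was called higher (log2 1.41). Myf5, Tcf3 and Tcf12 were not called (log2 0.10, -0.07 and -0.33). The part of these factors in the Chrng difference was not tested. Hdac9, a repressor of such genes in innervated muscle, stood at 1.62 CPM in Cipc-scko, against 6.68 CPM in Cipc-flox/flox (log2 -2.02, -2.72 to -1.42), and Hdac5 had a log2 ratio of -0.66, short of 2-fold.

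Of 8 genes for ETS factors and their partners, which act through the N-box (CCGGAA) of synaptic promoters, Cipc-scko had 1 higher and 2 lower, and the log2 median was 0.38. Ets1 had a log2 ratio of 1.62 (1.43 to 1.82). Etv4 stood at 9.97 CPM in Cipc-scko, against 77.8 CPM in Cipc-flox/flox (log2 -2.96), and Gabpb2 had a log2 ratio of -1.30. Etv1 stood at 6.42 CPM in Cipc-scko, against 3.54 CPM in Cipc-flox/flox, and was not called. Of 11 acetylcholine receptor subunit genes that are not part of muscle receptors, Chrnb2 alone had a row in the table used here, and it was called higher, with 27 counts in Cipc-scko, against 10 in Cipc-flox/flox (log2 1.46). Chrnb2 met the 1 CPM of the filter in Cipc-scko alone (1.68 CPM, against 0.591 CPM in Cipc-flox/flox). From FPKM with a pseudocount of 0.1 its log2 ratio was 0.73, short of 2-fold.

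Of 11 genes for receptor assembly, glycosylation and trafficking past the filter, 1 was higher in Cipc-scko and 0 lower, and the log2 median was 0.23. The gene called was Prepl, at 142 CPM in Cipc-scko, against 58.1 CPM in Cipc-flox/flox. The chaperone genes Hspa5 and Canx had log2 ratios of 0.95 and -0.68, and Alg14, of the glycosylation pathway, -0.36.

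Of 6 motor nerve terminal genes past the filter, Cipc-scko had 2 higher and 2 lower, and the log2 median was 0.29. The vesicle genes Vamp1 and Vamp2 had log2 ratios of 1.85 and 1.10 and Rab3a of 0.16. The 2 lower genes were Bsn, with 5 counts in Cipc-scko, against 59 in Cipc-flox/flox, and Pclo, with 12 counts in Cipc-scko, against 40 in Cipc-flox/flox. Of 13 genes listed, 9 had a row, and Chat, Slc18a3, Slc5a7 and Snap25 had none. Of 10 motor neuron markers, 5 had a row, and Chat, Isl1, Mnx1, Nefh and Slc18a3 had none. Of 4 past the filter, 3 were lower in Cipc-scko, Nefl and Nefm among them, and Tubb3 was not called (log2 0.93). The neurofilament genes Nefl and Nefm had 0 counts each in Cipc-scko, against 1820 and 1219 in Cipc-flox/flox. Summed over the 5 motor neuron markers with a row, the level was 249 CPM in Cipc-scko, nearly all of it Tubb3, and 399 CPM in Cipc-flox/flox. The 6 Schwann cell markers with a row summed to 96.9 CPM in Cipc-scko, mostly Pmp22, and 49.5 CPM in Cipc-flox/flox. Of the 3 past the filter 1, Pmp22, was higher in Cipc-scko and 2 were lower, among them Ngfr with 2 counts in Cipc-scko, against 310 in Cipc-flox/flox. Of 6 fibro-adipogenic genes 4 were lower in Cipc-scko and 1 higher, of 3 macrophage genes 2 were lower and 1 higher, and 1 of 1 endothelial gene past the filter was higher, with Tek at 0 in Cipc-scko and Pecam1 at 0 in Cipc-flox/flox. Summed levels were 871 CPM in Cipc-scko, against 1420 CPM in Cipc-flox/flox, for 6 fibro-adipogenic genes. Nearly all of the Cipc-scko sum was Ly6a (405 CPM) and Col1a1 (448 CPM), which stood at 459 and 116 CPM in Cipc-flox/flox. Of the 4 lower genes, Col1a2 stood at 17.3 CPM in Cipc-scko, against 803 CPM in Cipc-flox/flox. Cd34, Dcn and Pdgfra had log2 ratios of -6.86, -6.51 and -3.61. The 4 endothelial genes summed to 8.22 CPM in Cipc-scko, against 0.886 CPM in Cipc-flox/flox. The 4 macrophage genes summed to 6.17 CPM in Cipc-scko, against 47.3 CPM in Cipc-flox/flox. The part of these cell types in the differences above was not tested.

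**Figure D4:**
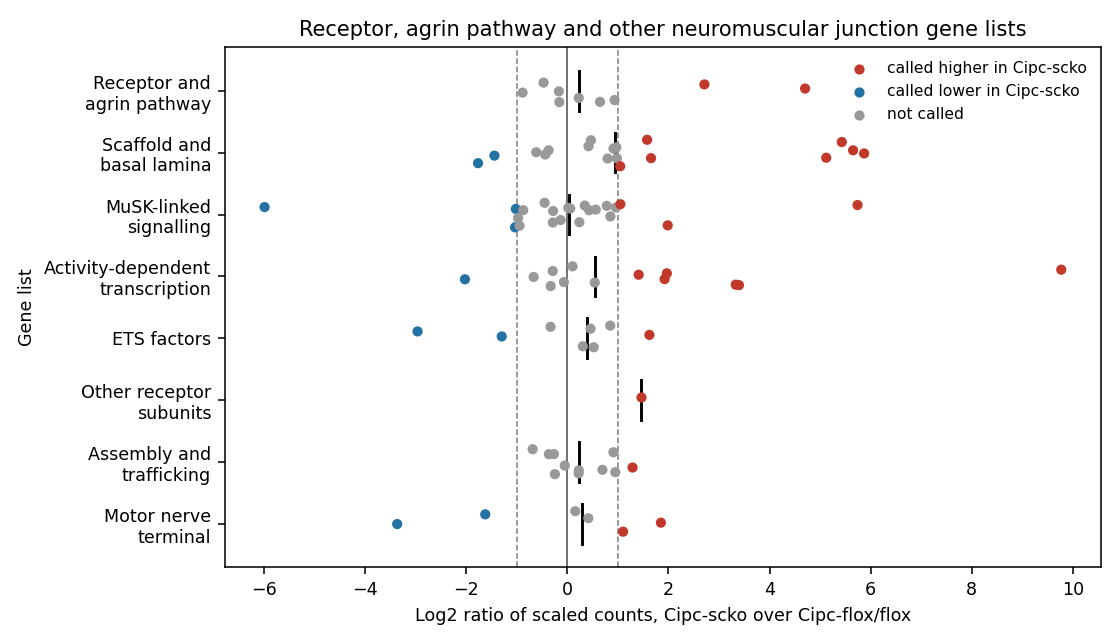
Log2 ratios of scaled counts (x axis, Cipc-scko over Cipc-flox/flox) of 9 receptor and agrin pathway genes and of 7 further junction gene lists (rows), 1 point per gene past the filter. Red points were called higher in Cipc-scko, blue points lower and grey points neither, black bars are list medians, and dashed lines mark 2-fold. Myog at 9.77 is the highest point and Nrg1, with 0 counts in Cipc-scko, the lowest.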

How the data were processed

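Per the file headers, the authors deposited 1 table of raw counts by Ensembl gene, covering both libraries, and FPKM values in 2 further files. GRCm38, HISAT2 2.0.4, CASAVA and StringTie 1.3.0 appear in the submitters' processing notes, with no roles stated. Annotation release, counting program and filters were not given in the sources used here. Over 13719 genes counted in both libraries, FPKM ratios divided by ratios of counts per total lay between 0.9996 and 1.0002. FPKM are thus the same measurement rescaled by length and library total.

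Symbols and positions came from GENCODE vM21 on GRCm38 (16116 of 16190 identifiers had a symbol). Counts were scaled with TMM factors (edgeR 4.0.16, R 4.3.3), with a prior count of 0.5 for log2 ratios. Counting intervals are exact binomial (Clopper-Pearson) intervals of a gene's split between libraries, or exact Poisson intervals for FPKM levels. No molecular identifiers are described for these reads, so intervals and floors cover counting error only. A floor of 3 counts was 0.187 CPM in Cipc-scko, against 0.177 CPM in Cipc-flox/flox. Copies of the 9 genes were sought among transcripts with BLAST+ 2.17.0 at 95% identity. Only Chrna1 had matches, the longest of 202 bases within a transcript of 4386 bases. For 1 gene the match with Chrna1 covered at least 80% of the shorter transcript of the pair. The ratios and their intervals were tested on simulated counts with counting error only and with known library sizes. That left TMM scaling and variation between animals untested.

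The genes and lists were chosen with earlier results of these data known. Named genes are the 9, and from each list the 2 highest and 2 lowest ratios among members of at least 5 CPM in a library and any member past the filter at 0 in a library. Xist, the Y-linked genes, Pax7, Tubb3, Pmp22, Nefl, Nefm, Chrnb2, Bsn, Pclo, Myh1, Myh2 and Myh7 were named after their values were seen. So were Tek, Pecam1, Efhd1, Eif4e2, the genes next to Agrn and Chrnb1, and the fibro-adipogenic genes. Myf5, Myf6, Tcf3 and Tcf12 were also named after their values were seen. Alternatives were other scalings (DESeq2 1.42.0, upper quartile, totals, or totals that leave out mitochondrial genes and the 10 with most counts), filters, prior count, FPKM with a pseudocount, and fold limits.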

Additional observations from a re-analysis of the deposited data

How the results depend on the processing

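Chrng and Agrn kept their direction and stayed past 2-fold under all 7 alternatives of scaling, prior count and unit, with log2 ratios of 4.24 to 4.74 and 2.13 to 2.75. The other 7 genes kept their sign under these 7, from -1.02 to -0.84 for Dok7 and from 0.67 to 0.98 for Lrp4. The number of the 9 genes called lower was 1 (Dok7) instead of 0 with scaling by totals, with FPKM and a pseudocount of 0.1, and with a fold limit of 1.5, and that limit gave 4 higher instead of 2. Over all genes, a fold limit of 4 gave 1608 higher and 860 lower, a limit of 1.5 gave 3318 lower, and FPKM with a pseudocount of 1 gave 1479 higher. Over the lists, higher and lower calls were 8 and 4 with a limit of 4, 32 and 16 with a limit of 1.5, and 12 and 6 with FPKM and a pseudocount of 1, against 21 and 10. A fold limit changes such counts by its construction. By construction too, a pseudocount pulls ratios of low levels toward equality, and another scaling moves all log2 ratios by nearly the same amount. How much each of these added to a shift was not tested. From FPKM, the Chrng share of the 4 subunits was 26.9% in Cipc-scko, against 1.23% in Cipc-flox/flox. This share was chosen after seeing the data, because the planned share of gamma plus epsilon counts needs Chrne and was not run. With scaling by totals the all-gene median shifted by -0.14, and 50.8% of calls were then higher instead of 57.1%. The list medians kept their sign except that of MuSK-linked signalling, which lay between -0.10 and 0.08, but their size moved: the nerve terminal median lay between 0.03 and 1.10 (with a filter of CPM 5) instead of 0.29, the scaffold and basal lamina median between 0.31 and 0.98 instead of 0.94, and the lowest value of Chrnb2 was 0.14 (FPKM, pseudocount of 1) instead of 1.46. No paired analysis was possible because each group has 1 library, and no library could be left out. Depth limits Ache, Dmd, Nrg1 and Chrnb2, which had few counts.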

Other observations

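Genes next to the receptor and agrin pathway genes were read as well, up to 2 with a row on each side. Of 27 such neighbours past the filter 8 were higher in Cipc-scko and 3 lower, or 40.7% called, beside 37.2% of all genes. The nearest gene to Agrn with a row is Isg15, an interferon-induced gene 1935 bases away, at 76.8 CPM in Cipc-scko, against 0.650 CPM in Cipc-flox/flox (log2 6.82, 6.04 to 7.89), beside 2.71 for Agrn. AW011738, on the same side of Agrn at 5815 bases, had 65 counts in Cipc-scko, against 2 in Cipc-flox/flox (log2 4.78, 3.19 to 8.17). Efhd1, 51668 bases from Chrng and the second gene on that side, had a log2 ratio of -7.39. On the other side of Agrn, 9430015G10Rik at 38024 bases had a log2 ratio of 1.15 (0.89 to 1.43). Gm16008, at 133646 bases on that side, had a log2 ratio of 0.61 and was not called. Chrnb1 lies within 124 bases of Fgf11 and 12 bases of Zbtb4. Fgf11 stood at 22.5 CPM in Cipc-scko, against 7.50 CPM in Cipc-flox/flox (log2 1.58, 1.29 to 1.89), Zbtb4 had a log2 ratio of 0.56 and Chrnb1 of 0.23. Farther out, Polr2a at 25398 bases was called lower in Cipc-scko (log2 -1.64, -1.70 to -1.59). Nlgn2 at 27178 bases had nearly equal levels (log2 0.0074).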
